A study of Mus musculus with 18 samples.

Results

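Plexiform neurofibromas of the mouse trigeminal nerve were set against normal trigeminal nerves, using the 12 of the 18 deposited samples that the labels put in these groups, 6 in each. The 6 samples of malignant peripheral nerve sheath tumour in the same table were not used, except in 1 alternative fit. The normal nerves carried the genotype Nf1 flox/flox PostnCre-, so both copies of Nf1 were floxed and no Cre recombinase was present. The neurofibromas carried Nf1 flox/flox PostnCre+, in which Cre is expressed under the promoter of Postn, the periostin gene. Both groups therefore share the floxed Nf1 alleles and differ by label in the Cre and in the lesion. The labels state no age, sex, strain background or pooling of animals, and the p-values below measure the spread between these samples. Poly(A) RNA was sequenced in bulk, and the table holds estimated counts per gene.

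Nf1 encodes neurofibromin, a GTPase-activating protein that returns RAS to its inactive form. Plexiform neurofibroma is a benign nerve sheath tumour that grows along large nerves, arises in the Schwann cell lineage after loss of Nf1, and holds many fibroblasts, macrophages and mast cells in an abundant collagen matrix. Postn-driven Cre is used in mouse models because it is active in cells of the embryonic Schwann cell lineage. The trigeminal nerve carries sensory axons of the face, whose cell bodies lie in the trigeminal ganglion.

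Nerve libraries held 14304163 to 20335502 estimated counts in all, and neurofibroma libraries 15308065 to 20056349. CPM below means counts scaled to a common library size by the trimmed mean of M-values (TMM), and each gene is given by its lowest, median and highest library. Schwann cell markers were high in all 12 libraries, as with S100b, which ran from 768 to 1032 CPM in nerve (median 848) and from 1331 to 1713 CPM in neurofibroma (median 1477). Transcripts of sensory neurons were also abundant in both groups: Prph, an intermediate filament of peripheral neurons, ran from 479 to 1089 CPM in nerve (median 1009) and from 755 to 1081 CPM in neurofibroma (median 828). Scn10a, a sodium channel of nociceptors, ran from 259 to 820.0 CPM in nerve (median 680.1) and from 389 to 719 CPM in neurofibroma (median 511), so the dissected tissue held neuronal transcripts in every library. Among the sensory neuron markers Prph, Isl1, Pou4f1, Scn10a and Calca, only Calca had the higher median in neurofibroma. It ran from 277 to 630 CPM in nerve (median 487) and from 394 to 738 CPM in neurofibroma (median 621). Xist exceeded 100 CPM in 3 nerves and 3 neurofibromas, the same number in each group.

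Markers of neighbouring tissue were high in some libraries. Nerve library 6 had the highest level of the lists for central glia, central neurons and meningeal fibroblasts, where a level is the mean of log2(CPM + 1) over a list. Its central neuron level was 4.18, against at most 2.12 in the other 5 nerves and at most 2.12 in neurofibromas. Neurofibroma library 1 had the highest levels for skeletal muscle, at 6.43, and adipocytes, at 5.58, against at most 1.43 and 1.21 in the other neurofibromas. Nerve library 3 was second in the skeletal muscle list, at 4.64. The central glia list summed to between 90.6 and 2533 CPM in nerves and between 98.4 and 983 CPM in neurofibromas. Its oligodendrocyte marker Opalin was at 0 in 2 nerves and 3 neurofibromas, while another, Mobp, was at 0 in none. The summed skeletal muscle list ran from 52.4 to 526 CPM in nerve and from 50.002 to 2080.0 CPM in neurofibroma. The part of such RNA in the changes below was not tested, so list counts are also given without a library where leaving it out moved them by more than 1.5 times.

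**Figure D1:**
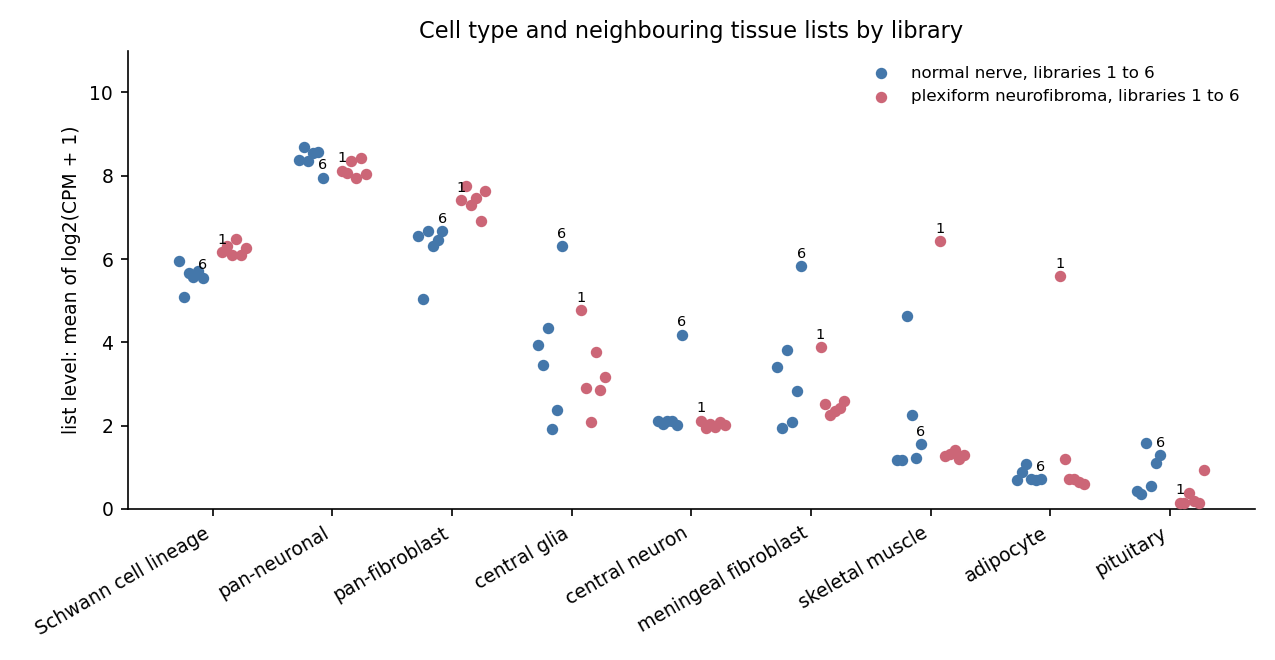
Level of 9 gene lists in each library, as the mean of log2(CPM + 1) over the list on the vertical axis, with normal nerves in blue and plexiform neurofibromas in red, each in the order of library 1 to 6; the digits mark nerve library 6 and neurofibroma library 1. Nerve library 6 reaches 4.18 in the central neuron list and neurofibroma library 1 reaches 6.43 in the skeletal muscle list.

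The first question was how many genes differ between the groups. Of 16464 genes tested, 2295 were called (adjusted p below 0.05, edgeR quasi-likelihood test), which is 13.9%. The calls comprised 1307 genes higher in neurofibroma (7.94%) and 988 lower (6.00%). These shares are the background for the list counts below. Leaving out 1 library at a time gave between 1147 and 3817 calls. The count was 3817 without nerve library 6, 1404 without nerve library 5, and 1355, 1147 and 1471 without neurofibroma libraries 2, 4 and 6. Without nerve library 6 and neurofibroma library 1 together, 3421 genes were called. Because single libraries moved the count, a call was set apart as stable when it held in the same direction in the fit of all 12 libraries and in each of the 12 fits without 1 of them. Stable calls numbered 1043 (6.34%), of which 601 were higher (3.65%) and 442 lower (2.68%). In 679 genes (4.12%) all 6 neurofibromas lay above all 6 nerves, and in 366 (2.22%) they all lay below. Rises were larger than falls: 381 called genes rose by at least 1 on the log2 scale and 61 fell by at least 1. The median log2 change over all genes tested was -0.017. Below, "rose" and "fell" are used of called genes, "stable" of calls that held in all 13 fits, and the size of a rise or fall is a log2 change, in neurofibroma against nerve, with its standard error (SE).

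Nf1 itself ran from 83.8 to 166 CPM in nerve (median 131) and from 66.7 to 90.4 CPM in neurofibroma (median 83.2). The highest neurofibroma lay above 2 of the nerves, libraries 2 and 6, so the groups overlapped. Nf1 fell (log2 change -0.60, SE 0.16, adjusted p = 0.0304), but the call was lost without nerve 3, 4 or 5 or neurofibroma 1, 2, 4 or 5, with an adjusted p of 0.0504 to 0.0664. A gene-level count sums all exons and includes cells in which the Postn promoter is not active, so it does not measure recombination. Postn, which encodes periostin, a secreted matrix protein, ran from 11.1 to 28.0 CPM in nerve (median 22.9) and from 83.4 to 252 CPM in neurofibroma (median 154). All neurofibromas lay above all nerves, and Postn rose (log2 change 2.92, SE 0.31, adjusted p = 0.00106). Cdkn2a, the locus of the cell cycle inhibitors p16 and ARF, was low but higher in every neurofibroma. It ran from 0.285 to 2.98 CPM in nerve (median 0.817) and from 3.56 to 8.60 CPM in neurofibroma (median 5.31) and rose (log2 change 2.27, SE 0.47, adjusted p = 0.0101). Gene-level counts do not separate its transcripts.

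The largest rise among the named genes was in Pmp2, which encodes myelin protein P2, a fatty acid binding protein of peripheral myelin. It ran from 0.7 to 11.6 CPM in nerve (median 7.13) and from 46.6 to 251 CPM in neurofibroma (median 197), with a log2 change of 4.70 (SE 0.56, adjusted p = 0.00166). The lowest neurofibroma still exceeded the highest nerve, although the 6 neurofibromas spread widely. Ccnd1, which encodes cyclin D1, a driver of entry into the cell cycle, ran from 7.65 to 45.7 CPM in nerve (median 36.1) and from 103 to 247 CPM in neurofibroma (median 190.3). Its groups did not overlap, and the change was 2.46 (SE 0.37, adjusted p = 0.00274). Akr1b3, aldose reductase, had the smallest p of all stable rises with an own symbol; it ran from 25.2 to 55.9 CPM in nerve (median 45.3) and from 137 to 237 CPM in neurofibroma (median 189). It rose by 2.09 (SE 0.19, adjusted p = 0.00043).

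The other leading rises spanned several kinds of protein. Leading rises and falls, including Pmp2, Ccnd1 and Akr1b3 above, were chosen among stable calls whose groups did not overlap. The lack of overlap in them is thus a condition of the choice and not a result. List members named below were mostly chosen by smallest p among stable calls, which favours lack of overlap. It is not read as a result there either, beside 4.12% of all genes above and 2.22% below. Klk8, the secreted serine protease neuropsin, rose by 3.47 on the log2 scale (SE 0.49) from low levels; it ran from 0.15 to 1.90 CPM in nerve (median 1.05) and from 5.78 to 15.9 CPM in neurofibroma (median 10.9). Ccl11, the chemokine eotaxin, ran from 1.35 to 13.6 CPM in nerve (median 9.95) and from 30.2 to 92.5 CPM in neurofibroma (median 67.0) and rose by 2.81 (SE 0.43). Ifi27l2a, an interferon-inducible gene, rose by 3.08, and Them5, an acyl-CoA thioesterase, by 3.08. Transcription factor genes Foxs1 and Meox1 rose by 2.62 and 2.35. Fbn2, which encodes the microfibril protein fibrillin-2, rose by 2.40. Nkd2, an inhibitor of WNT signalling, ran from 2.15 to 5.23 CPM in nerve (median 3.66) and from 8.29 to 26.5 CPM in neurofibroma (median 17.5) and rose by 2.24 (SE 0.29). Fgl2, a fibrinogen-like protein, rose by 2.18. Among the rises with the smallest p, Lama4, a laminin chain, ran from 30.3 to 52.7 CPM in nerve (median 38.3) and from 80.6 to 135 CPM in neurofibroma (median 105) and rose by 1.47 (SE 0.14, adjusted p = 0.000831). Dbi, an acyl-CoA binding protein, ran from 112 to 162 CPM in nerve (median 137) and from 241 to 315 CPM in neurofibroma (median 269.8) and rose by 1.02 (SE 0.11, adjusted p = 0.00103). The 6 values of each group lay close together for these 2 genes.

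The leading falls were smaller in size, and several of the genes are known from neurons. Calb1, the calcium-binding protein calbindin, ran from 59.9 to 119 CPM in nerve (median 90.4) and from 26.3 to 58.6 CPM in neurofibroma (median 42.4) and fell (log2 change -1.05, SE 0.21). Sncb, which encodes beta-synuclein, a presynaptic protein, fell (log2 change -0.97, SE 0.22), as did Lancl3 (log2 change -1.38, SE 0.30). Unc80, a component of the NALCN sodium leak channel complex, ran from 212 to 276 CPM in nerve (median 252) and from 121 to 174 CPM in neurofibroma (median 152) and fell (log2 change -0.74, SE 0.10, adjusted p = 0.00173). Adarb1, an adenosine deaminase that edits RNA, ran from 96.1 to 149 CPM in nerve (median 113) and from 62.7 to 75.4 CPM in neurofibroma (median 68.0) and fell (log2 change -0.78, SE 0.10). Susd6 ran from 64.1 to 137 CPM in nerve (median 125) and from 48.1 to 57.6 CPM in neurofibroma (median 51.7), with nerve library 6 the lowest nerve, and fell (log2 change -1.15, SE 0.15). The remaining leading falls were Cish, a feedback inhibitor of cytokine signalling (-1.10), Cnnm1 (-1.06), Ppp1r3f (-1.06), the atypical kinase Mapk4 (-1.02), Madd (-0.95), Lypd6b (-0.88), Cep170b (-0.86) and Nebl (-0.56). Like the leading rises, all of these were chosen among stable calls without overlap between groups. In bulk tissue, fewer cells of a type and less RNA per cell cannot be told apart, here or in any comparison below.

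**Figure D2:**
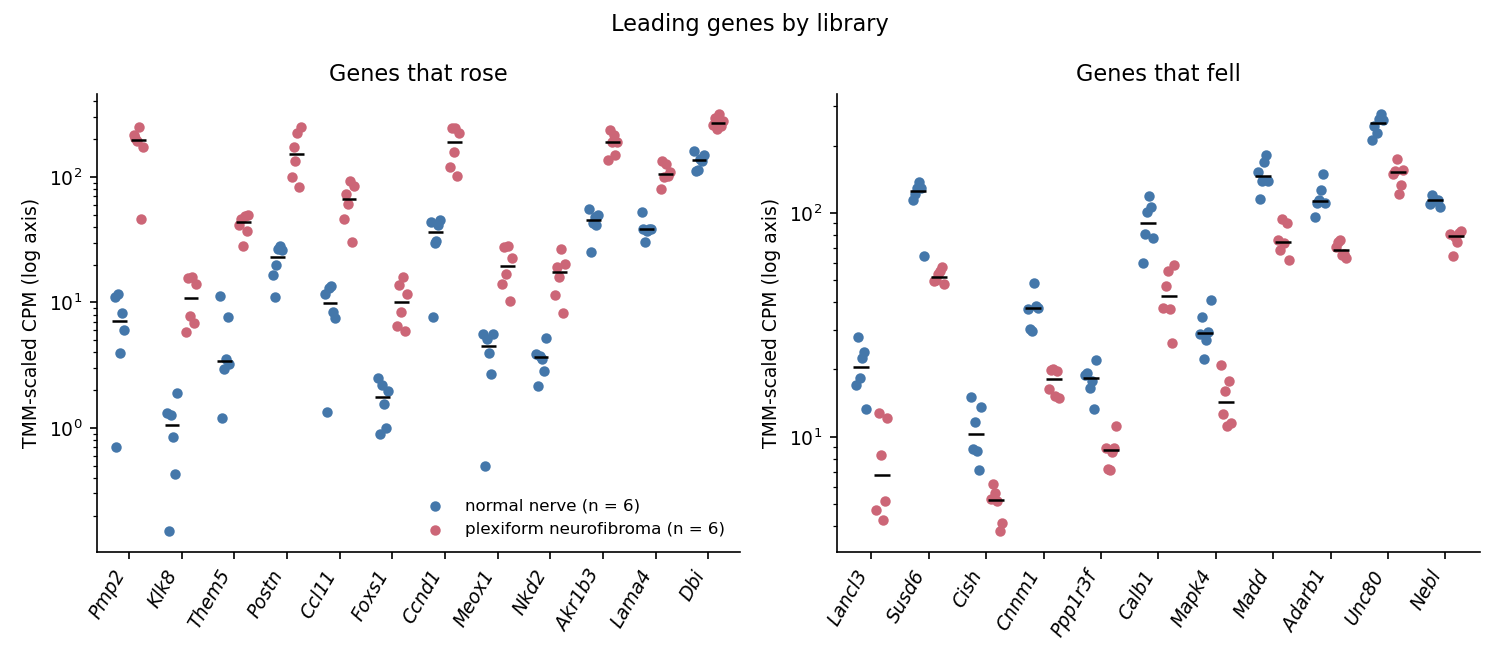
CPM of 12 leading rises (left) and 11 leading falls (right) in each library on a log axis, with normal nerves in blue, plexiform neurofibromas in red and black bars at the median of 6. The 23 genes were chosen among those without overlap between groups. Pmp2 has the widest separation of medians, 7.13 against 197 CPM.

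Lineage genes of Schwann cells, the glia that ensheath peripheral axons, were mostly higher in neurofibroma. Of 15 members tested in the Schwann cell lineage list, 8 were higher (6 stable) and none lower, with a median log2 change of 0.73. S100b, a calcium-binding protein of Schwann cells, did not overlap between groups and rose by 0.81 (SE 0.10, adjusted p = 0.00166). Egfl8 ran from 11.3 to 48.6 CPM in nerve (median 28.7) and from 79.5 to 146 CPM in neurofibroma (median 103) and rose by 1.90 (SE 0.28). Foxd3, a transcription factor of neural crest and glial precursors, rose by 1.25, and the adhesion gene Cdh19 by 0.94. Sox10, the transcription factor that defines the lineage, ran from 70.6 to 166 CPM in nerve (median 108) and from 128 to 255 CPM in neurofibroma (median 163); it rose by 0.74, but the call was lost without nerve 2, 3, 4 or 5 or neurofibroma 1, 2, 4 or 6, with an adjusted p of 0.0521 to 0.103. Ngfr, the p75 receptor of immature and injured Schwann cells, had a log2 change of 0.011 (adjusted p = 0.979). Sox10 and Ngfr were picked after their values were seen, the first as a marker of the cell type.

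Genes of peripheral myelin rose in part. In the myelin proteins list, 8 were higher (6 stable) and 1 lower (none stable) of 22 tested, and the median log2 change was 0.68. This total was 14 without nerve 1. Pmp22, whose dosage is known to matter in inherited neuropathy, ran from 855 to 2851 CPM in nerve (median 1533) and from 3011 to 5020.5 CPM in neurofibroma (median 3802) and rose by 1.23 (SE 0.24, adjusted p = 0.00829) without overlap. Gldn, gliomedin, which helps to form nodes of Ranvier, rose by 1.58. Mlip, which is counted in this list but is not itself a protein of the myelin sheath, rose by 1.35. Mbp and Mag, both myelin proteins and both shown after their values were seen, had changes of 0.65 (adjusted p = 0.101) and 0.011 (adjusted p = 0.989). The rise was thus uneven across myelin proteins.

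Of the factors that drive myelination, several rose. The myelin transcription factors list had 14 tested members with a median log2 change of 0.64, of which 5 were higher (2 stable) and none lower. With 1 library out it was 2 to 3 without nerve 3 or 5 or neurofibroma 2, 4 or 6. Rxrg, a retinoid X receptor, rose by 1.07, and Pou3f2, a POU domain factor, by 0.89. Egr2, the master regulator of myelination, was at 0.57 (adjusted p = 0.176, shown after its value was seen). For the immature and repair Schwann cell list, 17 members were tested and 2 were higher (all stable) and 1 lower (none stable) (median log2 change 0.10). The stable members were Btc, an EGF family ligand (1.27), and Runx2 (0.74), while Jun, the central repair factor, was at -0.20 (adjusted p = 0.391, also shown after its value was seen). Of 10 members tested in the nonmyelinating Schwann cell list, 2 were higher (1 stable) and none lower, with a median log2 change of 0.14. Called members numbered 1 without nerve 2 or neurofibroma 1, 4 or 6. Chl1, an adhesion molecule, rose by 0.86. In the satellite glia list, 2 were higher (1 stable) and 1 lower (none stable) of 10 tested, and the median log2 change was -0.25. Calls in the list were 5 without nerve 6 and 1 without nerve 2 or neurofibroma 2, 3, 4 or 6. Apoe, an apolipoprotein that macrophages also express, rose by 0.64.

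Fibroblast genes rose in large part. The pan-fibroblast list had 13 tested members with a median log2 change of 1.26, of which 9 were higher (5 stable) and none lower. That number became 5 without neurofibroma 2, 4 or 6. S100a4 ran from 8.45 to 22.4 CPM in nerve (median 17.1) and from 34.5 to 76.2 CPM in neurofibroma (median 57.5) and rose by 1.75 (SE 0.23, adjusted p = 0.00185). Fap, a cell surface protease of activated fibroblasts, ran from 2.001 to 6.28 CPM in nerve (median 4.63) and from 9.86 to 23.05 CPM in neurofibroma (median 16.8) and rose by 1.96 (SE 0.28). Vim, the intermediate filament vimentin, rose by 1.26. No neurofibroma overlapped a nerve in these 3 genes, which were chosen by smallest p among stable calls. Nerve library 2 was the lowest nerve for fibroblast genes: its list level was 5.03, against 6.31 or more in the other nerves and 6.92 or more in neurofibromas. For the endoneurial fibroblast list, 9 members were tested and 6 were higher (5 stable) and none lower (median log2 change 1.403). Its stable members include Cdkn2a, given above and counted again among the cell cycle regulators below. Apod, an apolipoprotein abundant in nerve fibroblasts, ran from 588 to 1542 CPM in nerve (median 1206) and from 2535 to 5735 CPM in neurofibroma (median 3125) and rose by 1.61 (SE 0.26). Spp1, the secreted phosphoprotein osteopontin, ran from 93.1 to 255 CPM in nerve (median 168) and from 273 to 707 CPM in neurofibroma (median 525) and rose by 1.58 (SE 0.27). Spp1 is also made by macrophages and by some sensory neurons.

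The lists for the outer layers of the nerve held few calls. Their counts are not read as a result beside the shares over all genes, 7.94% higher and 6.00% lower. Of 10 members tested in the perineurial cell list, 1 was higher (stable) and 1 lower (stable), with a median log2 change of -0.26. Gpc3, a glypican, rose by 1.81, whereas Lgi2 fell (log2 change -0.67, SE 0.12). Slc2a1, the glucose transporter of the perineurium, ran from 52.3 to 131 CPM in nerve (median 68.2) and from 56.1 to 73.0 CPM in neurofibroma (median 58.4) and was not called. In the epineurial and universal fibroblast list, 2 were higher (all stable) and none lower of 14 tested, and the median log2 change was -0.079. Its calls came to 4 without nerve 6. The stable ones were Gsn, the actin-severing protein gelsolin (1.30), and Anxa3 (1.59).

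Collagens and other matrix genes also rose in part. Col3a1 is counted in both the pan-fibroblast and the fibrillar collagens lists, so their counts are not independent. The fibrillar collagens list had 11 tested members with a median log2 change of 1.41, of which 7 were higher (5 stable) and none lower. Col3a1, collagen III, ran from 11.4 to 96.0 CPM in nerve (median 66.2) and from 107 to 410.3 CPM in neurofibroma (median 220.2) and rose by 2.04 (SE 0.44, adjusted p = 0.0117). Col5a2 and Col5a1, chains of collagen V, rose by 1.01 and 1.47, and Col27a1 by 1.58. For the basement membrane list, 23 members were tested and 11 were higher (10 stable) and none lower (median log2 change 0.87). Basement membranes surround each Schwann cell and vessel. Besides Lama4, the nidogen Nid2 ran from 10.8 to 20.01 CPM in nerve (median 13.5) and from 31.6 to 57.2 CPM in neurofibroma (median 39.7) and rose by 1.55 (SE 0.20), and the basement membrane collagens Col18a1 and Col15a1 rose by 1.57 and 1.93. The groups did not overlap in any of these genes, which were chosen by smallest p among stable calls.

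Other matrix classes followed. Of 21 members tested in the other collagens list, 8 were higher (4 stable) and 2 lower (none stable), with a median log2 change of 0.94. The count came to 4 to 6 without nerve 5 or neurofibroma 1, 2, 4 or 6. Col28a1, a collagen of peripheral nerve, ran from 43.2 to 65.6 CPM in nerve (median 52.2) and from 86.9 to 120.0 CPM in neurofibroma (median 102) and rose by 0.94 (SE 0.12, adjusted p = 0.00166), while Col16a1, Col6a3 and Col23a1 rose by 1.79, 1.46 and 1.12. In the matrix glycoproteins list, 12 were higher (9 stable) and none lower of 38 tested, and the median log2 change was 0.72. Besides Postn and Fbn2, Matn2 rose by 1.17 and Tgfbi by 1.77. The proteoglycans list had 29 tested members with a median log2 change of 0.34, of which 8 were higher (4 stable) and none lower. The calls changed to 13 without nerve 6 and 4 to 5 without nerve 4 or 5 or neurofibroma 2, 4 or 6. Cspg4, the NG2 proteoglycan, ran from 9.85 to 25.0 CPM in nerve (median 16.5) and from 32.7 to 83.2 CPM in neurofibroma (median 62.1) and rose by 1.82 (SE 0.25); Gpc4 and Sdc4 rose by 1.35 and 1.22.

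Enzymes that build and cut the matrix were also among the rises. For the collagen processing and crosslinking list, 25 members were tested and 8 were higher (4 stable) and 1 lower (stable) (median log2 change 0.35). Both directions together gave 5 without neurofibroma 2 or 4. Lox, lysyl oxidase, which crosslinks collagen, ran from 10.6 to 18.4 CPM in nerve (median 12.2) and from 28.9 to 75.3 CPM in neurofibroma (median 50.1) and rose by 1.96 (SE 0.25, adjusted p = 0.00166). P3h2 and Crtap, which act in collagen prolyl 3-hydroxylation, rose by 1.72 and 1.18, and Loxl2 by 1.14. Adamts3, a procollagen protease, fell (log2 change -1.06, SE 0.22). Of 33 members tested in the matrix proteases and inhibitors list, 11 were higher (8 stable) and 1 lower (none stable), with a median log2 change of 0.15. Mmp2, a gelatinase, ran from 4.15 to 27.0 CPM in nerve (median 14.4) and from 36.6 to 112 CPM in neurofibroma (median 71.0) and rose by 2.18 (SE 0.39), and its inhibitor Timp1 rose by 2.26. Adamtsl1 rose by 2.12. In the integrins list, 8 were higher (2 stable) and 1 lower (stable) of 19 tested, and the median log2 change was 0.49. The number called was 3 to 5 without nerve 2, 3 or 4 or neurofibroma 2, 4 or 6. Itga1, a collagen receptor chain, and Itgav rose by 1.14 and 1.17, and Itga3, a laminin receptor chain, fell (log2 change -0.47, SE 0.12).

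**Figure D3:**
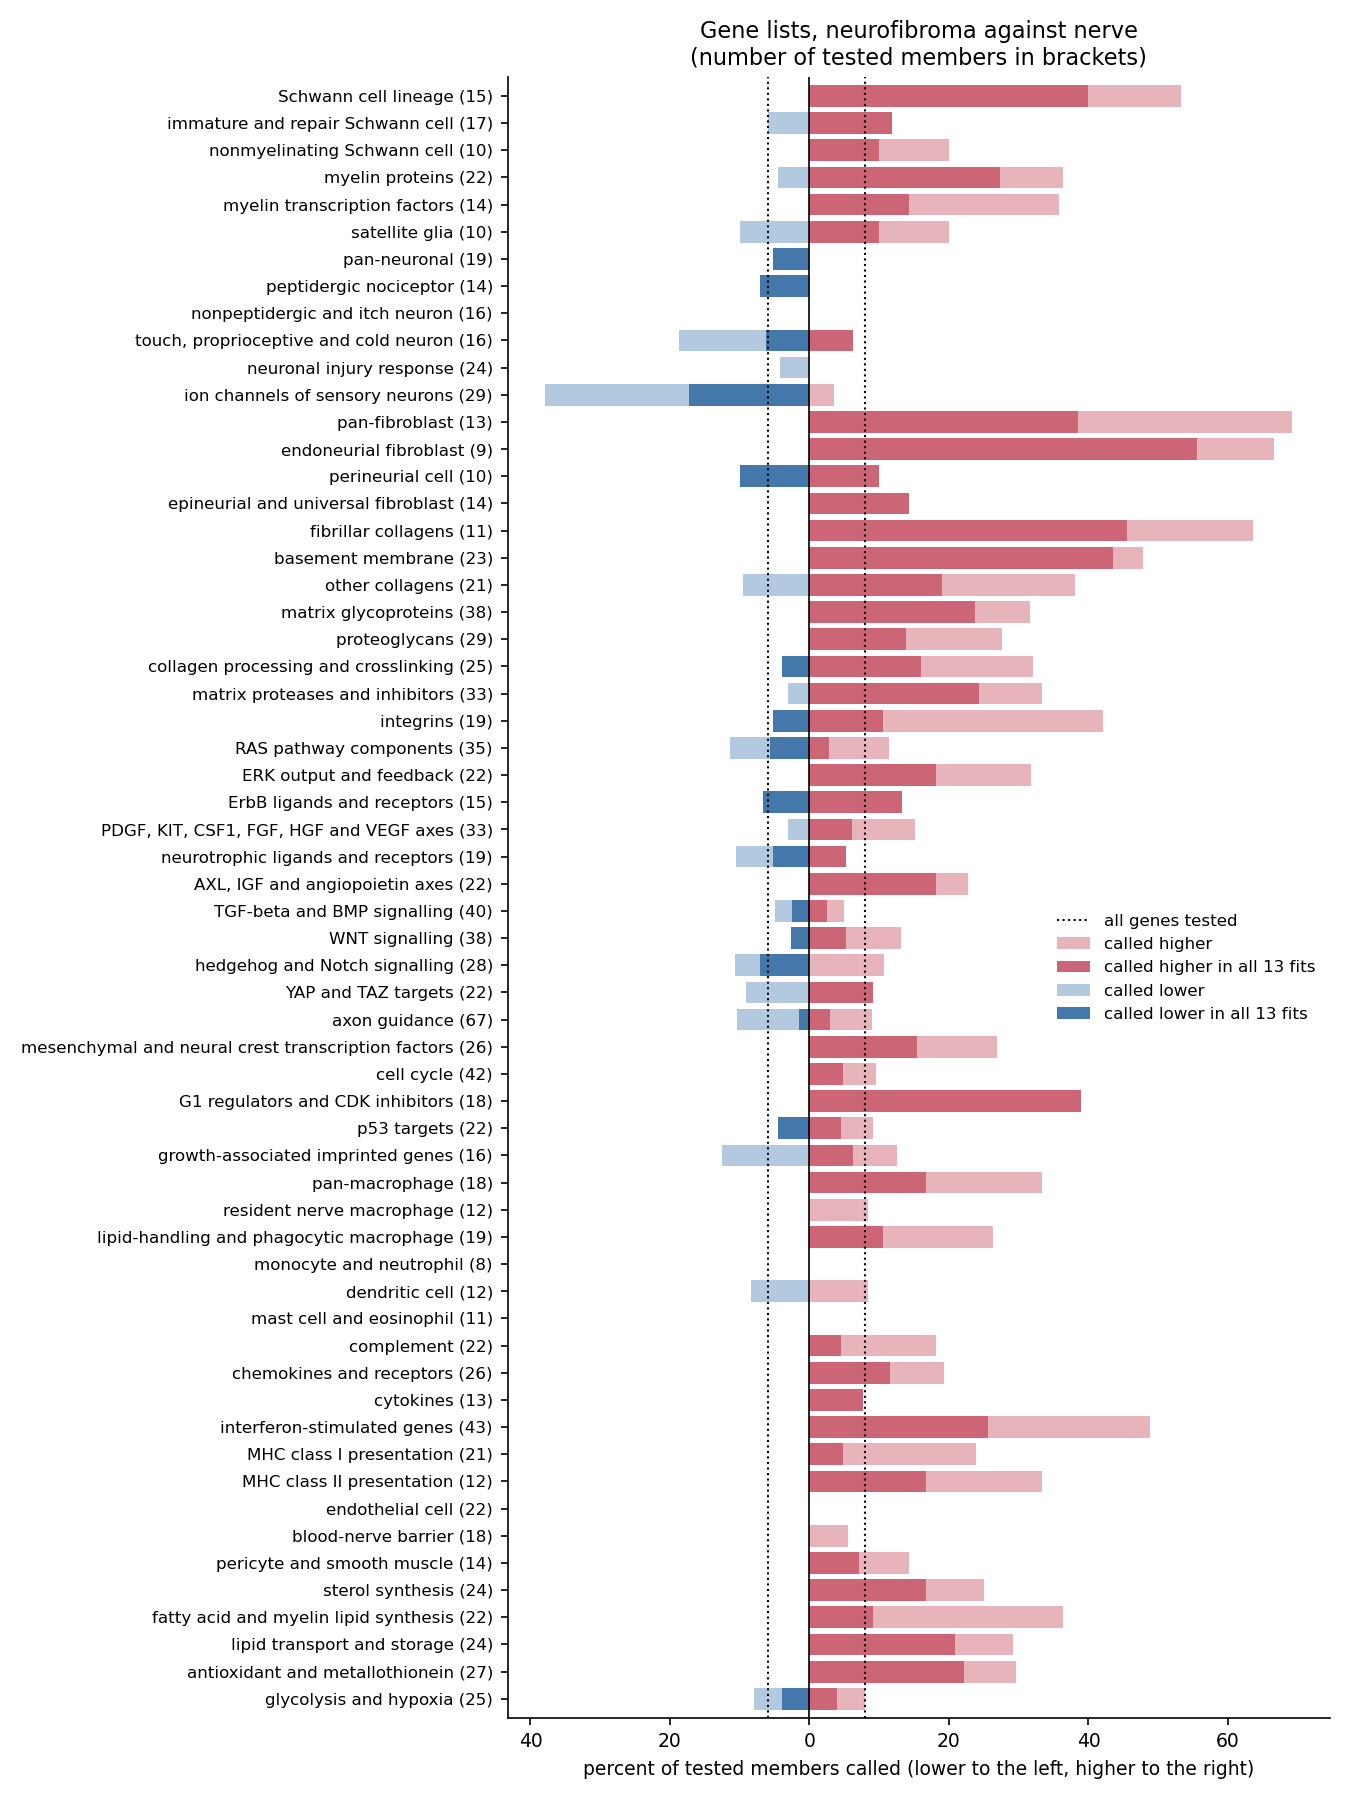
Percent of the tested members of each gene list called higher (red, to the right) or lower (blue, to the left) in neurofibroma, with calls that held in all 13 fits in the darker shade; dotted lines mark the shares over all genes tested, 7.94% higher and 6.00% lower. The pan-fibroblast, endoneurial fibroblast, fibrillar collagen and Schwann cell lineage lists reach furthest to the right, and the ion channel list furthest to the left.

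Components of the RAS pathway itself were called in both directions. Those counts are not read as a result beside 7.94% higher and 6.00% lower over all genes. The RAS pathway components list had 35 tested members with a median log2 change of -0.049, of which 4 were higher (1 stable) and 4 lower (2 stable). This total was 15 without nerve 6 and 3 to 5 without nerve 5 or neurofibroma 2, 4 or 6. Rras, a RAS family GTPase, rose by 0.71, and Rasgrf2, an exchange factor, and Ksr2, a scaffold, fell (log2 change -0.39, SE 0.074, and log2 change -0.73, SE 0.14). The classical RAS genes Hras and Nras, named after their values were seen, had changes of 0.061 and 0.24 (adjusted p = 0.768 and 0.253). Genes induced by ERK, the kinase at the end of the pathway, were more often higher. For the ERK output and feedback list, 22 members were tested and 7 were higher (4 stable) and none lower (median log2 change 0.69). With 1 library out it was 4 without neurofibroma 4. Dusp6, a phosphatase that acts back on ERK, ran from 20.01 to 27.1 CPM in nerve (median 24.6) and from 35.4 to 49.8 CPM in neurofibroma (median 45.8) and rose by 0.85 (SE 0.11, adjusted p = 0.00166). Emp1 rose by 1.87 and the transcription factor gene Etv4 by 1.17. Spry2 and Etv5, also ERK targets and shown after their values were seen, were at 0.25 and 0.19 (adjusted p = 0.185 and 0.354).

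Growth factor ligands and receptors held calls in both directions, apart from the last list given here. The counts in both directions are not read as a result beside 7.94% higher and 6.00% lower over all genes. Of 15 members tested in the ErbB ligands and receptors list, 2 were higher (all stable) and 1 lower (stable), with a median log2 change of 0.43. Called members numbered 5 to 8 without nerve 1 or 6. Hbegf ran from 8.40 to 19.9 CPM in nerve (median 10.9) and from 33.7 to 94.8 CPM in neurofibroma (median 54.2) and rose by 2.15 (SE 0.30, adjusted p = 0.00203), without overlap, and Btc rose as given above. Nrg3, a neuregulin, fell (log2 change -0.70, SE 0.095, adjusted p = 0.00191). Erbb3, the neuregulin receptor of Schwann cells, ran from 43.5 to 136 CPM in nerve (median 78.7) and from 104 to 184 CPM in neurofibroma (median 140.3), with an adjusted p of 0.0603. In the PDGF, KIT, CSF1, FGF, HGF and VEGF axes list, 5 were higher (2 stable) and 1 lower (none stable) of 33 tested, and the median log2 change was -0.10. Calls in the list were 11 without nerve 6 and 2 to 3 without nerve 5 or neurofibroma 2, 4 or 6. Pdgfa, a growth factor for mesenchymal cells, rose by 0.80, and Il34, a ligand of the macrophage receptor CSF1R, by 0.81. The neurotrophic ligands and receptors list had 19 tested members with a median log2 change of -0.008, of which 1 was higher (stable) and 2 lower (1 stable). That number became 8 without nerve 6. Cntf, a neurotrophic factor made by Schwann cells, rose by 1.29, and its receptor subunit Cntfr fell (log2 change -0.48, SE 0.10). For the AXL, IGF and angiopoietin axes list, 22 members were tested and 5 were higher (4 stable) and none lower (median log2 change 0.14). Its calls came to 8 without nerve 6. Axl, a receptor tyrosine kinase, ran from 22.3 to 51.9 CPM in nerve (median 40.6) and from 76.1 to 135 CPM in neurofibroma (median 95.7). Axl rose by 1.37 (SE 0.20), and Pros1, of the same list, rose by 0.90. Igfbp3, an IGF binding protein, and Angptl2 rose by 1.14 and 1.33.

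Lists of developmental pathways held calls in both directions, apart from the last of those given here. Beside the shares over all genes, 7.94% higher and 6.00% lower, the counts in both directions are not read as a result. Of 40 members tested in the TGF-beta and BMP signalling list, 2 were higher (1 stable) and 2 lower (1 stable), with a median log2 change of 0.018. The count came to 11 without nerve 6 and 2 without nerve 4 or 5 or neurofibroma 2, 4 or 6. Nog, the BMP antagonist noggin, fell (log2 change -0.87, SE 0.19). In the WNT signalling list, 5 were higher (2 stable) and 1 lower (stable) of 38 tested, and the median log2 change was 0.036. The calls changed to 11 without nerve 6 and 3 without neurofibroma 4. Besides Nkd2, the receptor Fzd1 rose by 0.66, and the ligand Wnt5a fell (log2 change -0.66, SE 0.14). The hedgehog and Notch signalling list had 28 tested members with a median log2 change of 0.053, of which 3 were higher (none stable) and 3 lower (2 stable). Both directions together gave 2 to 3 without neurofibroma 2, 4 or 6. Boc, a hedgehog co-receptor, and Jag2, a Notch ligand, fell (log2 change -0.63, SE 0.11, and log2 change -0.84, SE 0.17). For the YAP and TAZ targets list, 22 members were tested and 2 were higher (all stable) and 2 lower (none stable) (median log2 change -0.004). The number called was 9 without nerve 6 and 2 without nerve 3 or neurofibroma 2, 3 or 4. The stable members were Axl and Igfbp3. Of 67 members tested in the axon guidance list, 6 were higher (2 stable) and 7 lower (1 stable), with a median log2 change of -0.22. This total was 25 without nerve 6 and 3 to 8 without nerve 3, 4 or 5 or neurofibroma 2, 4 or 6. The ephrin receptors Ephb3 and Ephb6 rose by 1.18 and 1.19, and Sema7a fell (log2 change -0.58, SE 0.13). In the mesenchymal and neural crest transcription factors list, 7 were higher (4 stable) and none lower of 26 tested, and the median log2 change was 0.52. With 1 library out it was 4 without nerve 5 or neurofibroma 2, 4 or 6. Meox2 ran from 0.4 to 2.998 CPM in nerve (median 1.90) and from 4.49 to 16.3 CPM in neurofibroma (median 8.44) and rose by 2.26 (SE 0.41), beside Meox1, and Sox4 rose by 0.93.

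Regulators of the first phase of the cell cycle rose in part. In the list of DNA replication and mitosis genes, 4 of 42 were called higher, near the 7.94% of all genes tested. The G1 regulators and CDK inhibitors list had 18 tested members with a median log2 change of 0.33, of which 7 were higher (all stable) and none lower. The 7 were Ccnd1, Ccnd2, Ccnd3, Cdk4, Cdkn2a, Cdkn2b and Cdkn2c, of which Ccnd3 and Cdk4 are named here to complete the count. Cdkn2b, the inhibitor p15, ran from 2.29 to 3.63 CPM in nerve (median 3.03) and from 7.82 to 14.5 CPM in neurofibroma (median 9.86) and rose by 1.85 (SE 0.19, adjusted p = 0.00103). Cdkn2c, the inhibitor p18, ran from 2.72 to 3.86 CPM in nerve (median 3.21) and from 6.01 to 14.3 CPM in neurofibroma (median 10.5) and rose by 1.65 (SE 0.21, adjusted p = 0.00166). D-type cyclins and the INK4 inhibitors that bind their kinases were thus higher in the same tumours. Ccnd2 rose by 1.43, Ccnd3 by 1.17 and Cdk4 by 0.57. Cdkn1a, the p53-induced inhibitor p21, was at 0.43 (adjusted p = 0.231), and was shown after its value was seen.

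The list of S phase and mitosis genes gave 2 stable calls. For the cell cycle list, 42 members were tested and 4 were higher (2 stable) and none lower (median log2 change 0.25). Called members numbered 2 without nerve 2, 4 or 5 or neurofibroma 1, 2 or 4. Ezh2, a histone methyltransferase, and Tyms, thymidylate synthase, rose by 1.18 and 0.99. Mki67, the standard proliferation marker, ran from 1.501 to 7.26 CPM in nerve (median 2.97) and from 3.15 to 6.73 CPM in neurofibroma (median 5.31) (log2 change 0.61, adjusted p = 0.238), and Top2a ran from 0.7 to 3.34 CPM in nerve (median 2.06) and from 1.93 to 5.84 CPM in neurofibroma (median 4.06) (log2 change 1.03, adjusted p = 0.103). The groups overlapped in both, which were named after their values were seen. Among targets of p53, the counts were near the background. Of 22 members tested in the p53 targets list, 2 were higher (1 stable) and 1 lower (stable), with a median log2 change of -0.038. Calls in the list were 5 without nerve 6. Phlda3 rose by 0.85 and Zmat3 fell (log2 change -0.58, SE 0.12). In the growth-associated imprinted genes list, 2 were higher (1 stable) and 2 lower (none stable) of 16 tested, and the median log2 change was -0.51. That number became 1 to 2 without nerve 2, 4 or 5 or neurofibroma 1, 2, 3, 4 or 6. The stable rise was Sgce (0.66).

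**Figure D4:**
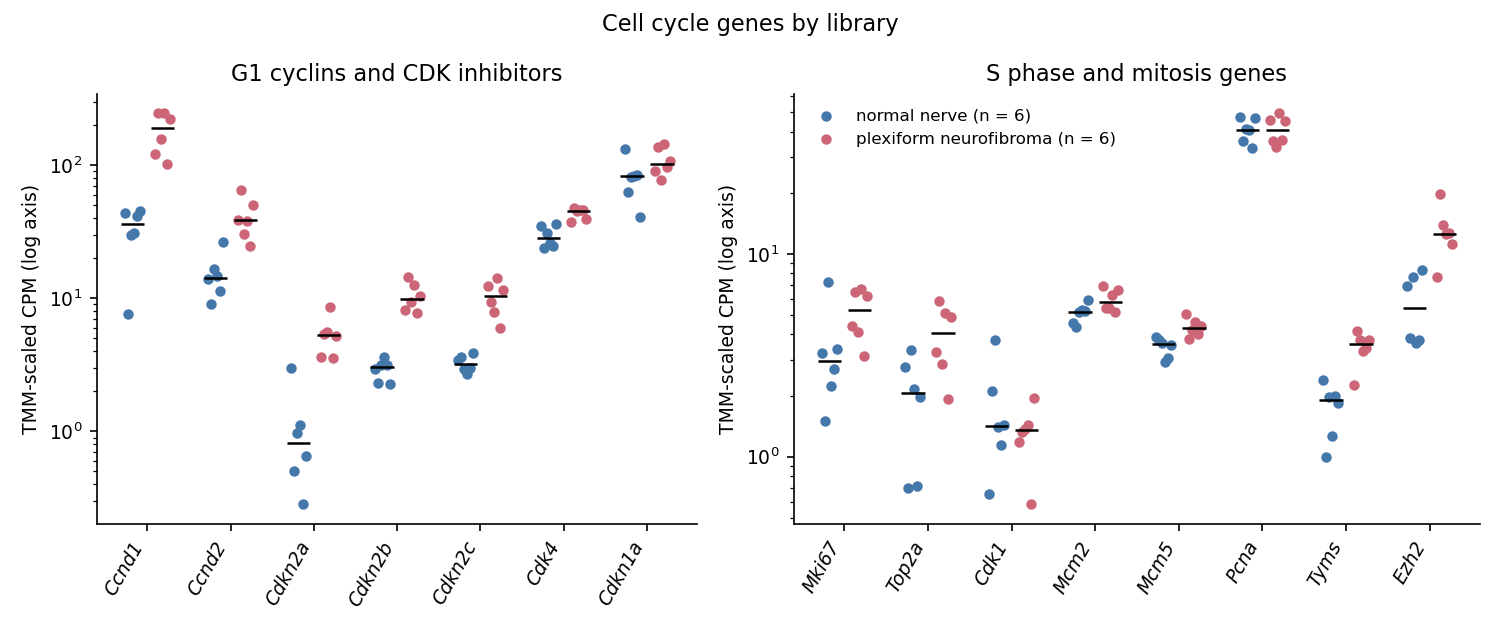
CPM of 7 cyclins and CDK regulators (left) and of 8 genes of DNA replication and mitosis (right) in each library on a log axis, with normal nerves in blue, plexiform neurofibromas in red and black bars at the median of 6. The medians of Ccnd1 are 36.1 CPM in nerve and 190.3 CPM in neurofibroma, whereas those of Mki67 are 2.97 and 5.31 CPM.

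Transcripts of neurons mostly leaned lower, but few general neuronal genes were called. The pan-neuronal list had 19 tested members with a median log2 change of -0.29, of which 1 was lower (stable) and none higher. Its calls came to 6 without nerve 6. Snap25, a synaptic fusion protein, ran from 1056 to 1581 CPM in nerve (median 1370.1) and from 913 to 1095 CPM in neurofibroma (median 986) and fell (log2 change -0.45, SE 0.11, adjusted p = 0.0192), with overlapping groups. Of 19 members, 19 had negative changes, where 51.9% of all genes tested did. For the peptidergic nociceptor list, 14 members were tested and 1 was lower (stable) and none higher (median log2 change -0.12). Its changes were positive in 6 members and negative in 8. The count came to 2 to 5 without nerve 6 or neurofibroma 5. The stable fall was Gpr26, an orphan receptor (log2 change -0.54, SE 0.11). Of 16 members tested in the nonpeptidergic and itch neuron list, none was called by edgeR, with a median log2 change of -0.30. The calls changed to 3 to 6 without nerve 6 or neurofibroma 5. By other rules, unadjusted p was below 0.05 in 6, and DESeq2 called 4 and limma-voom 5. Its smallest p was in the serotonin receptor gene Htr1f (log2 change -0.70, SE 0.22, adjusted p = 0.0536). In the touch, proprioceptive and cold neuron list, 1 was higher (stable) and 3 lower (1 stable) of 16 tested, and the median log2 change was -0.37. Both directions together gave 7 without nerve 6 and 2 without nerve 2, 3, 4 or 5 or neurofibroma 1, 2 or 4. The stable members were Calb1, which fell, and Spp1, which rose. Without nerve library 6, the numbers lower in these 3 lists were 5, 6 and 6.

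Ion channels were the neuronal list with the most falls. The ion channels of sensory neurons list had 29 tested members with a median log2 change of -0.50, of which 1 was higher (none stable) and 11 lower (5 stable). The number called was 19 without nerve 6 and 6 to 7 without neurofibroma 1, 2 or 4. Kcnq3, a potassium channel subunit of the M current, ran from 90.3 to 129 CPM in nerve (median 108) and from 61.4 to 76.0 CPM in neurofibroma (median 68.2) and fell (log2 change -0.67, SE 0.10, adjusted p = 0.00274). Hcn2, a pacemaker channel, ran from 96.6 to 147 CPM in nerve (median 121) and from 59.3 to 83.7 CPM in neurofibroma (median 79.5) and fell (log2 change -0.73, SE 0.13). Hcn3, of the same family as Hcn2, fell (log2 change -0.82, SE 0.17). The groups did not overlap in Kcnq3, Hcn2 and Hcn3, which were chosen by smallest p among stable calls. Scn10a, by contrast, was not called (log2 change -0.26, adjusted p = 0.469). For the neuronal injury response list, 24 members were tested and 1 was lower (none stable) and none higher (median log2 change -0.24). This total was 2 to 4 without nerve 1 or 6 and 0 without neurofibroma 2, 3, 4, 5 or 6. The gene called in the fit of all 12 libraries, Ecel1, ran from 0.489 to 54.9 CPM in nerve (median 1.72) and from 0.407 to 1.58 CPM in neurofibroma (median 0.705), and its high value was in nerve library 6; the call was lost without nerve 2, 5 or 6 or neurofibroma 1, 2, 3, 4, 5 or 6, with an adjusted p of 0.0512 to 0.144. Atf3 and Sprr1a, markers of axon injury shown after their values were seen, were at -0.71 and -0.98 (adjusted p = 0.332 and 0.352).

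**Figure D5:**
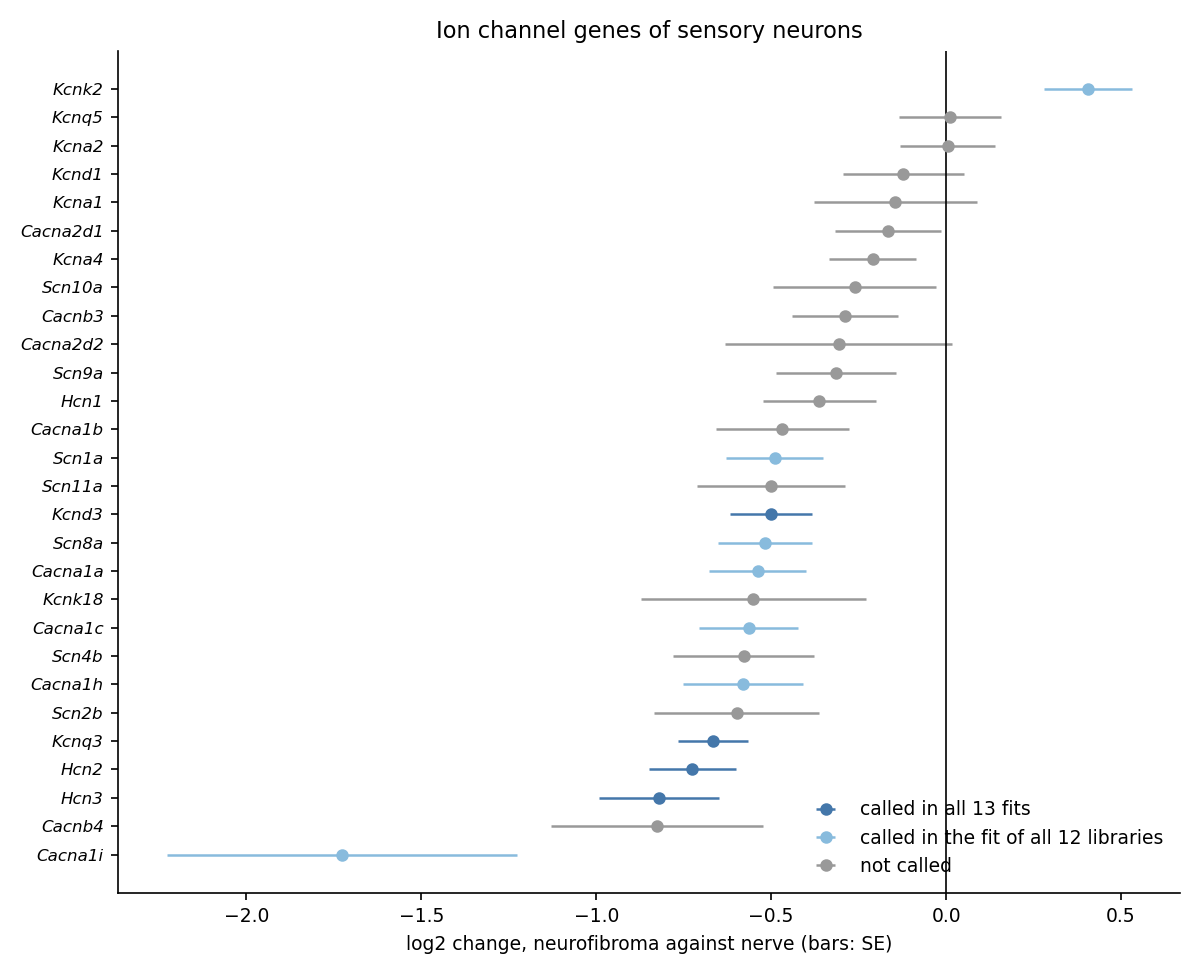
Log2 change in neurofibroma against nerve for 28 of the 29 tested ion channel genes of sensory neurons, with bars for the SE, dark blue for calls that held in all 13 fits, light blue for other calls and grey for genes not called. Most points lie to the left of 0, and the stable calls lie between -0.82 and -0.50.

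Macrophage genes were higher in part, with a wide spread among nerves. Of 18 members tested in the pan-macrophage list, 6 were higher (3 stable) and none lower, with a median log2 change of 0.98. With 1 library out it was 13 without nerve 6 and 3 without nerve 1, 2, 4 or 5 or neurofibroma 2, 4 or 6. Ms4a7 ran from 0.15 to 1.64 CPM in nerve (median 1.07) and from 2.005 to 5.68 CPM in neurofibroma (median 3.46) and rose by 1.98 (SE 0.45, adjusted p = 0.0147). Aif1, the actin-bundling protein IBA1, ran from 0.75 to 4.84 CPM in nerve (median 1.85) and from 6.06 to 9.39 CPM in neurofibroma (median 7.79) and rose by 1.61 (SE 0.39), and the Fc receptor gene Fcgr1 rose by 1.68. Csf1r, the receptor that macrophages need to survive, ran from 11.96 to 59.6 CPM in nerve (median 27.4) and from 34.7 to 78.6 CPM in neurofibroma (median 54.3), with an adjusted p of 0.0744, and the groups overlapped. In the resident nerve macrophage list, 1 was higher (none stable) and none lower of 12 tested, and the median log2 change was 0.15. Called members numbered 3 without nerve 6 and 0 without nerve 1, 3, 4 or 5 or neurofibroma 1, 2, 4 or 6. The member called was Cx3cr1 (log2 change 1.42, SE 0.43, adjusted p = 0.0451); the call was lost without nerve 1, 2, 3, 4 or 5 or neurofibroma 1, 2, 4 or 6, with an adjusted p of 0.0679 to 0.0972. The lipid-handling and phagocytic macrophage list had 19 tested members with a median log2 change of 0.80, of which 5 were higher (2 stable) and none lower. Calls in the list were 9 without nerve 6 and 2 without neurofibroma 4. The stable ones were Spp1 and Apoe, both described above.

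The lists of other immune cell types held no stable call. For the monocyte and neutrophil list, 8 members were tested and none was called by edgeR (median log2 change 0.49). That number became 1 without nerve 3 or 6. Of these members, unadjusted p was below 0.05 in 0, and DESeq2 called 0 and limma-voom 1. The smallest p was in Itgal (adjusted p = 0.181). Of 12 members tested in the dendritic cell list, 1 was higher (none stable) and 1 lower (none stable), with a median log2 change of -0.29. Its calls came to 5 without nerve 6 and 0 to 1 without nerve 1, 2, 3, 4 or 5 or neurofibroma 1, 2, 3, 4, 5 or 6. The higher one was Siglech, of plasmacytoid cells (log2 change 1.68, SE 0.49, adjusted p = 0.0393), and the lower one was Flt3 (log2 change -0.38, SE 0.11), named to complete the count. For Siglech, the call was lost without nerve 1, 2, 3, 4 or 5 or neurofibroma 1, 4, 5 or 6, with an adjusted p of 0.0542 to 0.0853. In the mast cell and eosinophil list, none was called by edgeR of 11 tested, and the median log2 change was 0.42. The count came to 1 without nerve 1. Among these 11, unadjusted p was below 0.05 in 3, and DESeq2 called 0 and limma-voom 1. Mast cells are a known feature of neurofibroma; their protease gene Cpa3 ran from 0.556 to 4.38 CPM in nerve (median 1.72) and from 1.64 to 4.92 CPM in neurofibroma (median 2.64) (adjusted p = 0.553). Slc18a2, an amine transporter with the smallest p in the list, ran from 0.96 to 118 CPM in nerve (median 2.13) and from 1.12 to 2.07 CPM in neurofibroma (median 1.43) (adjusted p = 0.0576), and its highest value was in nerve library 6. The T and NK cell list had 3 tested members with a median log2 change of 0.55, of which none was called by edgeR. The calls changed to 1 without nerve 1. Of the 3, unadjusted p was below 0.05 in 2, and DESeq2 called 1 and limma-voom 1. Klrb1c had the smallest p (adjusted p = 0.0517). For the B and plasma cell list, 5 members were tested and none was called by edgeR (median log2 change 0.83). Of the 5, unadjusted p was below 0.05 in 0, and DESeq2 called 0 and limma-voom 0. Ighm was at 0.83 (adjusted p = 0.223).

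Chemoattractants and complement genes rose in part. Of 26 members tested in the chemokines and receptors list, 5 were higher (3 stable) and none lower, with a median log2 change of 0.63. Both directions together gave 9 without nerve 6 and 3 without neurofibroma 6. Rarres2, the attractant chemerin, ran from 10.00 to 33.0 CPM in nerve (median 25.1) and from 57.0 to 97.8 CPM in neurofibroma (median 79.3) and rose by 1.74 (SE 0.23, adjusted p = 0.00176). Ccl2, the main monocyte attractant, ran from 0.3 to 1.57 CPM in nerve (median 1.15) and from 2.10 to 6.23 CPM in neurofibroma (median 5.45) and rose by 2.17 (SE 0.39), beside Ccl11. Neither gene, chosen by smallest p among stable calls, overlapped between groups. In the complement list, 4 were higher (1 stable) and none lower of 22 tested, and the median log2 change was 0.43. The number called was 7 to 9 without nerve 6 or neurofibroma 3 and 1 to 2 without nerve 5 or neurofibroma 1, 2, 4 or 6. C4b, complement component 4, ran from 42.4 to 115 CPM in nerve (median 59.2) and from 109 to 371 CPM in neurofibroma (median 224) and rose by 1.81 (SE 0.32). The cytokines list had 13 tested members with a median log2 change of 0.37, of which 1 was higher (stable) and none lower. This total was 4 without nerve 6. The stable member was Il34.

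Interferon-stimulated genes were a large block of rises. For the interferon-stimulated genes list, 43 members were tested and 21 were higher (11 stable) and none lower (median log2 change 0.86). With 1 library out it was 11 to 13 without nerve 4 or 5 or neurofibroma 2, 4 or 6. Ifit1, which binds viral RNA, ran from 8.40 to 24.9 CPM in nerve (median 14.9) and from 34.5 to 69.2 CPM in neurofibroma (median 37.9) and rose by 1.49 (SE 0.26, adjusted p = 0.00507). Isg15, a ubiquitin-like modifier, ran from 1.401 to 8.07 CPM in nerve (median 3.13) and from 9.57 to 22.1 CPM in neurofibroma (median 11.7) and rose by 1.87 (SE 0.40). Ifit3 rose by 1.71, and shares near-identical sequence with Ifit3b, so their counts are uncertain. Isg15 and Ifit3 were picked for their promoters. Parp14 and Lgals3bp rose by 1.29 and 0.79. Rsad2 and Ifit2, also classical members, were at 0.11 and 0.24 (adjusted p = 0.816 and 0.25), and were named after their values were seen.

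The promoters of these genes were searched for the interferon-stimulated response element, to which the factor complex ISGF3 binds. The pattern was GAAA, any 2 bases and GAAA again or, on the other strand, TTTC, any 2 bases and TTTC, in the 250 bases before the start, with overlapping matches allowed. RefSeq promoters on GRCm38.p6 were found for 31 of the 43 tested members, and 15 of these (48.4%) held the pattern, against 374 of 12013 promoters of all genes tested (3.1%). It was present in 7 of 15 members called higher and in 8 of 16 not called, so its presence did not separate them. The windows of 100 bases below show 1 match each in capitals, 5′ to 3′ on the strand of the gene, for 3 stable rises. They lie at chr4:156200830-156200929 on the minus strand for Isg15, and on the plus strand at chr19:34640759-34640858 for Ifit1 and chr19:34583362-34583461 for Ifit3, on GRCm38.p6.
Isg15: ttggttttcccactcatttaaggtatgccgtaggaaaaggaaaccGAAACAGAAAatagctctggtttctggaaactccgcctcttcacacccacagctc
Ifit1: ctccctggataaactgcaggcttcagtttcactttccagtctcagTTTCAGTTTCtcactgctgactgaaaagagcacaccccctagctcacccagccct
Ifit3: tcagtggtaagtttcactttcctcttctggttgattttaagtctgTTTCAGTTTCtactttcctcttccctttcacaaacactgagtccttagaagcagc
The match begins 66 bases before the start of Isg15, 85 before that of Ifit1 and 122 before that of Ifit3. A match describes letters and not a bound site.

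Antigen presentation genes were higher in part. Of 21 members tested in the MHC class I presentation list, 5 were higher (1 stable) and none lower, with a median log2 change of 0.84. Called members numbered 9 without nerve 3 and 1 to 3 without nerve 2, 4 or 5 or neurofibroma 1, 2, 4 or 6. Psmb10, an immunoproteasome subunit, rose by 0.83 (SE 0.19). In the MHC class II presentation list, 4 were higher (2 stable) and none lower of 12 tested, and the median log2 change was 0.87. Calls in the list were 2 without neurofibroma 4. H2-DMb2 and H2-DMb1, which help to load peptides, rose by 2.81 and 1.30. Genes of the H2 families resemble each other closely, so the split of reads between them is uncertain.

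Vessel lists gave 0 to 2 calls each. The endothelial cell list had 22 tested members with a median log2 change of -0.31, of which none was called by edgeR. That number became 1 without nerve 5 or 6 or neurofibroma 1 or 5. By unadjusted p below 0.05, 3 members passed, and DESeq2 and limma-voom called 1 and 1. Pecam1, an endothelial adhesion molecule, ran from 21.6 to 49.8 CPM in nerve (median 27.3) and from 25.7 to 35.5 CPM in neurofibroma (median 32.2) (log2 change -0.071, adjusted p = 0.84), with overlapping groups. Sox17 had the smallest p (log2 change -0.76, SE 0.24, adjusted p = 0.0524). For the blood-nerve barrier list, 18 members were tested and 1 was higher (none stable) and none lower (median log2 change -0.25). Its calls came to 2 without nerve 1 or 6 and 0 without nerve 2, 3, 4 or 5 or neurofibroma 1, 2, 4 or 6. In the fit of all 12 libraries the member was the junction gene Jam3 (log2 change 0.67, SE 0.19); the call was lost without nerve 2, 3, 4 or 5 or neurofibroma 1, 2, 4 or 6, with an adjusted p of 0.0512 to 0.0819. Of 14 members tested in the pericyte and smooth muscle list, 2 were higher (1 stable) and none lower, with a median log2 change of 0.26. The count came to 1 without nerve 2, 3, 4 or 5 or neurofibroma 1, 2, 4 or 6. The stable one was Cspg4. In the lymphatic endothelium list, 2 were higher (1 stable) and none lower of 6 tested, and the median log2 change was 0.43. The calls changed to 1 without nerve 3, 4 or 5 or neurofibroma 1, 2, 3, 4, 5 or 6. The stable one was Reln, a secreted glycoprotein (1.53).

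All calls in the lipid lists were rises. The sterol synthesis list had 24 tested members with a median log2 change of 0.24, of which 6 were higher (4 stable) and none lower. All 24 changes were positive, against 48.1% of all genes. Nsdhl ran from 43.2 to 54.6 CPM in nerve (median 47.2) and from 60.2 to 71.5 CPM in neurofibroma (median 68.9) and rose by 0.49 (SE 0.075, adjusted p = 0.00302), and Mvd, Pmvk and Msmo1, enzymes of the same pathway, rose by 0.63, 0.45 and 0.48. For the fatty acid and myelin lipid synthesis list, 22 members were tested and 8 were higher (2 stable) and none lower (median log2 change 0.43). Both directions together gave 3 to 5 without nerve 2, 3, 4 or 5 or neurofibroma 1, 2, 4 or 6. Scd1, a fatty acid desaturase, rose by 0.68 and Me1, malic enzyme, by 0.46. Of 24 members tested in the lipid transport and storage list, 7 were higher (5 stable) and none lower, with a median log2 change of 0.41. Besides Them5 and Apod, Npc2, a lysosomal cholesterol carrier, rose by 0.56 and Abca8a by 1.30.

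In the antioxidant and metallothionein list, 8 were higher (6 stable) and none lower of 27 tested, and the median log2 change was 0.29. The number called was 14 without nerve 6. Akr1b3 led this list. Gpx1 and Gpx4, glutathione peroxidases, rose by 0.44 and 0.62, and Hmox1, heme oxygenase, by 0.99. The glycolysis and hypoxia list had 25 tested members with a median log2 change of -0.15, of which 2 were higher (1 stable) and 2 lower (1 stable). This total was 2 without nerve 5 or neurofibroma 2. Adm, the vasodilator adrenomedullin, rose by 1.33, and Eno2, the neuronal enolase, fell (log2 change -0.50, SE 0.12).

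Levels relative to a marker gene are given as differences in the log2 ratio of 2 genes (each as CPM with a pseudocount added) between neurofibroma and nerve, with no test, because the pairs were chosen after values were seen and many of the genes were picked as separating the groups. Relative to Sox10, Pmp2 was higher by 3.86, Ccnd1 by 1.77, Akr1b3 by 1.32, Egfl8 by 1.19, Cdkn2b by 0.78 and Pmp22 by 0.56. S100b to Sox10 differed by 0.051, or by 0.095 without nerve library 6 and neurofibroma library 1. Prph, the marker taken for sensory neurons, was lowest in nerve library 6. Relative to Prph, Kcnq3 differed by -0.59, Calb1 by -0.98, Hcn2 by -0.65 and Snap25 by -0.37. Without those same libraries these differences were -0.47, -0.82, -0.46 and -0.21.

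Relative to Pdgfra, a fibroblast marker, Postn was higher by 1.96, Col3a1 and Mmp2 both by 1.31, Lox by 0.96 and Apod by 0.75. Relative to Csf1r, the macrophage-associated genes Ms4a7, Spp1 and Ccl2 differed by 0.28, 0.56 and 0.43. A marker can itself change per cell, so these ratios describe unequal change between 2 genes.

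Lists for sample quality and for neighbouring tissue are given for completeness. For the immediate early and dissection stress list, 25 members were tested and 1 was higher (stable) and 1 lower (none stable) (median log2 change 0.27). With 1 library out it was 4 without nerve 6 and 1 without nerve 2 or 3 or neurofibroma 1, 2, 3, 4, 5 or 6. The stable one was Nr4a1 (0.74). Of 17 members tested in the protein folding stress list, 1 was higher (none stable) and none lower, with a median log2 change of -0.021. Called members numbered 0 without nerve 1, 2, 3, 4 or 5 or neurofibroma 1, 2, 4, 5 or 6. The call in the fit of all 12 libraries was Creld2 (log2 change 0.62, SE 0.19); the call was lost without nerve 1, 2, 3, 4 or 5 or neurofibroma 1, 2, 4, 5 or 6, with an adjusted p of 0.052 to 0.0994. In the circadian clock list, 2 were lower (1 stable) and none higher of 18 tested, and the median log2 change was -0.19. Calls in the list were 4 without nerve 6 and 1 without neurofibroma 1, 2, 3, 4 or 5. The stable one was Cry2 (-0.42). By edgeR, none of the members tested was called in the lists for mitochondrially encoded genes (13 tested), sex-linked genes (5), erythroid cells (6), central glia (13), central neurons (7), meningeal fibroblasts (12), skeletal muscle (10), adipocytes (2), melanocytes (3), epithelium and gland (4) or pituitary (1). By unadjusted p below 0.05, 15 members of these 11 lists passed, and DESeq2 and limma-voom called 4 and 5. Without nerve library 6, 4 central neuron and 2 mitochondrially encoded genes were called, and without neurofibroma library 1, 2 meningeal fibroblast and 1 central neuron genes. Fits without another library called at most 1 member of any of these lists, among erythroid, central neuron, meningeal fibroblast, melanocyte and pituitary genes. Their spread between libraries was large, as in the skeletal muscle gene Actn3, which ran from 0.458 to 8.82 CPM in nerve (median 0.953) and from 1.46 to 59.7 CPM in neurofibroma (median 2.59), and in the astrocyte transporter gene Slc1a2, which ran from 13.8 to 709.6 CPM in nerve (median 31.6) and from 17.9 to 64.2 CPM in neurofibroma (median 31.5). The smallest p of each of the others was in mt-Nd6 (adjusted p = 0.424), Eif2s3y (0.815), Slc4a1 (0.0542), Cbln1 (0.0648), Slc6a20a (0.055), Car3 (0.0671), Tyrp1 (0.0928), Amy1 (0.249) and Gh (0.2), in the order of the lists above. The cartilage and bone list had 8 tested members with a median log2 change of -0.078, of which 2 were higher (1 stable) and 1 lower (none stable). That number became 1 without nerve 2, 4 or 5 or neurofibroma 2, 4 or 6. The stable one was Cnmd, chondromodulin (2.005).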

How the data were processed

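Groups were taken from the labels. Per the labels' protocols, column-purified RNA was made into stranded poly(A) libraries. The authors deposited estimated counts per gene (51290 genes); per the submitters' processing notes these came from Salmon 1.4.0 on GRCm39, with FastQC and DESeq2 also named. No source used here gives the annotation release or counting settings, so reads of near-identical or overlapping genes may be split differently. Estimated counts were rounded. The test of the 12 libraries was glmQLFTest after glmQLFit, with TMM scaling and filterByExpr by group (edgeR 4.0.16, R 4.3.3), two-sided, at a Benjamini-Hochberg adjusted p below 0.05. It was refitted without each library. DESeq2 1.42.0, limma 3.58.1 (voom) and other normalizations, filters and thresholds were alternatives. Libraries of a group differed by at least 17.21 in chi-square over its degrees of freedom, so none was a duplicate.

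The members and the 78 gene lists (1518 genes, 1330 tested) were chosen with earlier results of these data known. Genes named were Nf1, Cdkn2a and Postn; among stable calls without overlap and with at least 10 CPM, the 12 largest rises and falls and the 6 of each with the smallest p; and up to 4 stable members per list in its main direction and 3 in the other, or the member with the smallest p. Markers of cell types and of sex, such as Prph, Scn10a, Slc2a1, Csf1r, Erbb3, Cpa3, Pecam1 and Xist, came from a separate marker list. Other genes outside these rules are marked where they appear. Some results are not reported here. The code was tested on simulated data.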

Additional observations from a re-analysis of the deposited data

Results flagged for a closer look

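Each value below lay apart from the other 5 libraries of its group, with a gap to the nearest that exceeded Dixon's critical value as a share of the group's range. Of 414 sets of 6 values examined, 39 did so. For independent, normally distributed values, about 1 in 20 would. Most sets here were unlogged CPM of genes from the same libraries, so that rate does not strictly apply. Of these 39, 11 were in nerve library 6 and 7 in neurofibroma library 1.

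In nerve library 6, genes of central or meningeal tissue were high: Slc1a2 at 709.6 CPM (next nerve 49.8), Slc18a2 at 117.6 (2.36), Slc6a20a at 102.9 (8.39), Ecel1 at 54.9 (4.90) and Cbln1 at 25.6 (6.52). Sncb at 146 CPM (75.0) and Siglech at 6.87 (2.13) were also its highest, and the central neuron list level was 4.18 (2.12). Sensory neuron genes were lowest there, with Prph at 479 CPM (next lowest 909) and Scn10a at 259 (624), as was Susd6 at 64.1 (114).

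In neurofibroma library 1, the skeletal muscle level was 6.43 (next neurofibroma 1.43) and the adipocyte level 5.58 (1.21). Car3, a carbonic anhydrase of muscle and fat, was at 431 CPM (10.4) and Actn3 at 59.7 (3.78). Scd1 was at 1228 CPM (897), Me1 at 253 (208) and Slc6a20a at 6.24 (1.94). Scd1 and Me1 are also abundant in adipocytes, and both kept their call when this library was left out.

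Nerve library 2 had the lowest fibroblast level, 5.03 (next nerve 6.31), and the lowest Gpc3, 10.2 CPM (44.3). It had the highest Slc2a1, 131 CPM (77.4), Sox17, 13.4 (7.98), and Sprr1a, 4.30 (1.72). Nerve library 3 was highest in the skeletal muscle level, 4.64 (2.27), Actn3, 8.82 CPM (2.59), Mki67, 7.26 (3.40), and Itgal, 3.52 (1.37). Nerve library 1 was highest in Col18a1, 36.5 CPM (26.5), Mvd, 27.1 (21.9), Hmox1, 23.3 (15.4), and Cdkn2a, 2.98 (1.12). Neurofibroma library 6 was highest in Ifit1, 69.2 CPM (40.6), Ighm, 44.5 (14.7), and Gh, 9.84 (0.256). Neurofibroma library 4 was highest in Anxa3, 60.3 CPM (35.3), and Btc, 3.75 (2.12), library 2 in Psmb10, 58.9 (34.7), and Creld2, 22.1 (14.3), and library 5 in Slc2a1, 73.0 CPM (61.9).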

How the results depend on the processing

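The count of 2295 called genes was 4026 by limma-voom with quality weights, 3549 by DESeq2, 1438 with no filter beyond 1 count, 520 at an adjusted p below 0.01, 13 by glmTreat against a log2 change of 1, and 2 in 1 fit of all 18 samples. It ran from 1147 to 3817 with 1 library left out. Fits of 3 against 3 libraries, split by the 2 runs in which the columns stand in the table, called 0 and 5 genes, with 3002 and 2796 at an unadjusted p below 0.05; with the run as a term 1908 were called. These 3 fits were chosen after seeing the data, and the labels name no batch. The 1043 stable calls were 108 at an adjusted p below 0.01 and 1037 with RLE size factors, and all 1043 were also called by DESeq2 and limma-voom.

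Of 196 genes given with a test, 160 were called. With 1 library left out, 2243 of their values kept direction and side of the threshold, 69 lost the call and 20 gained it. Reversals were in genes that were not called: with 1 library left out Mag ran from -0.18 to 0.28, Ngfr from -0.15 to 0.097, Rsad2 from -0.057 to 0.29, Pecam1 from -0.17 to 0.083, Hras from -0.033 to 0.10, Car3 from -0.081 to 3.94 and Eif2s3y from -0.095 to 1.07. Without nerve library 6 and neurofibroma library 1 Ngfr was at -0.13, Pecam1 at 0.044 and Car3 at -0.11. By limma-voom Ngfr was at -0.13 and Pecam1 at 0.14, and with 1 CPM in 6 samples Ngfr was at -0.018 and Mag at -0.011. In the first run of columns Nras was at -0.081, Ngfr at -0.073 and Rsad2 at -0.038; in the second Sprr1a was at 1.58, Atf3 at 0.84, Jun at 0.041, Scn10a at 0.030, Mag at -0.21, Car3 at -0.34 and Eif2s3y at -0.90. The cause was not tested. No paired analysis was possible because the labels carry no replicate number or animal shared between groups. Genes at a few CPM rest on few counts.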
